A study of Caenorhabditis elegans with 2 samples.

Results

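EGL-43 sites were examined at 10 genes that act in the hermaphrodite-specific neurons (HSNs) of Caenorhabditis elegans, out of 19973 protein-coding genes. The 10 genes were chosen by their known function in HSN migration and differentiation, by a choice made with earlier results of these data known. They are unc-86, sem-4, egl-46, egl-44, egl-18, hlh-3, ast-1, ham-1, ham-2 and tph-1. A peak belonged to a gene when its summit lay between 5 kb upstream of the gene start and the gene end. By this rule 4 of the 10 genes carried a thresholded summit (egl-44, egl-18, ast-1 and ham-2), with 5 summits in all. Of all protein-coding genes, 19.1% carried one.

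The chromatin came from whole L4 larvae of strain RW12181, aged 49 hours, which had been synchronised as starved L1 larvae after bleaching. A CRISPR insertion placed TY1, EGFP and 3xFLAG tags at the endogenous egl-43 gene on chromosome II (allele st12181), and the immunoprecipitation used an antibody to GFP. There were 2 biological replicates of 1 group, and untagged worms and a control library were not analysed here. No comparison between conditions exists. A control file was among the inputs of each deposited list, per the file headers. With neither that control nor untagged worms analysed here, a peak from bound EGL-43 and one from background cannot be told apart at any site. Whole animals were used, so sites bound in the HSNs and in other cells cannot be told apart either.

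The HSNs are a bilateral pair of serotonergic motor neurons that drive egg laying. They are born in the tail, migrate forward during embryogenesis and differentiate during larval life, with the mature serotonergic state reached around the L4 stage. EGL-43, a zinc finger protein related to mammalian EVI1, is needed for their migration. A group of transcription factors that includes UNC-86, SEM-4, HLH-3, EGL-46, AST-1 and EGL-18 acts together in HSN differentiation, and tph-1 is a gene switched on by it.

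Each peak has a signal value, which the authors' peak caller gave, and an irreproducible discovery rate (IDR) score, in which 1000 is the most reproducible. The thresholded lists hold peaks with a score of 830 or more, a global IDR of about 0.01. The series thresholded list held 3146 peaks with a median signal of 139.6, and the list of all ranked peaks from which it came held 65641 with a median of 41.5. Not every ranked peak with a score of 830 or more was kept, as the ranked list held 3193 of them. The highest signal was 3470 in the ranked list and 1279 in the thresholded list. What left these peaks out was not tested. The replicate 1 thresholded list held 1532 peaks and that of replicate 2 held 1621. Signals are on the scale of their own list, and the series list, made from both replicates together, runs higher than the replicate lists. The median ranked signal was 23.0 in replicate 1 and 24.2 in replicate 2, and ratios between the replicates are not adjusted for scale. Read depth is unknown, so a single signal carries no error.

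**Figure D1:**
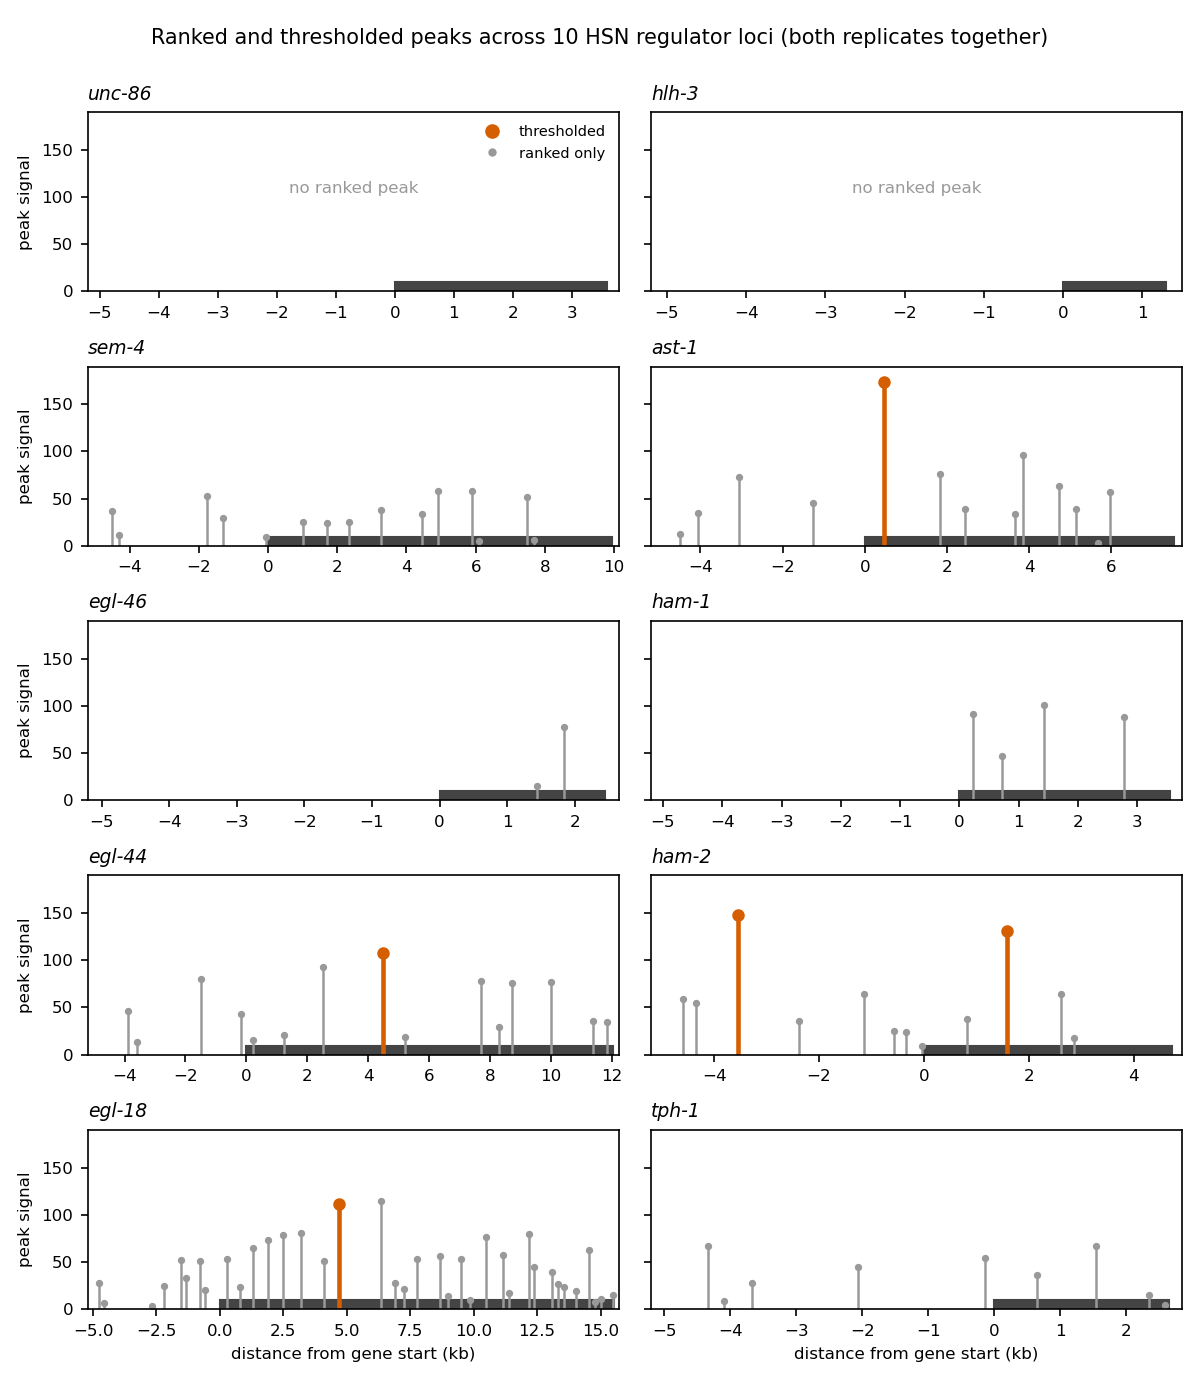
Signal of each ranked peak of the series (vertical axis, the authors' signal value) against its distance from the gene start (horizontal axis, kb), for the 10 genes. Dark bars are gene bodies, large orange points are thresholded peaks and grey points are peaks in the ranked list alone. The 5 thresholded peaks lie at egl-44, egl-18, ast-1 and ham-2, and the panels of unc-86 and hlh-3 are empty.

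Among the factors of HSN differentiation, the strongest summit was at ast-1, which encodes an ETS domain factor. The peak lay at chrII:4134733-4135062 (ce11), with its summit 461 bp downstream of the gene start, in exon 1 of the annotated transcript and within its 5' UTR. Its signal of 174 ranked 934 of 3146, and 29.7% of thresholded peaks had a higher one. Replicate 1 gave a signal of 76.03 and replicate 2 one of 89.7. The IDR score was 905 in replicate 1 and 671 in replicate 2, so only the replicate 1 thresholded list held the peak. The conservative list of the series held it too, with a score of 1000. The ast-1 site was thus above the median of the list, and replicate 2 had 1.18 times the signal of replicate 1.

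At egl-18, which encodes a GATA factor, the thresholded summit lay 4692 bp downstream of the gene start, at chrIV:1906849-1907178. It fell in the first intron (11092 bp) of transcript F55A8.1a.2 and upstream of the other 2 transcripts. Its signal of 112 ranked 2771, and 88.0% of thresholded peaks had a higher one. The replicates differed most at this site, with 35.5 in replicate 1 and 82.5 in replicate 2, a ratio of 2.32. Replicate 2 gave it a score of 1000 and replicate 1 a score of 274. A second peak in the same intron, 6348 bp from the gene start, had a slightly higher signal of 114.5 but a score of 706, below the threshold. Its replicate signals were closer, at 58.8 and 51.9. In the other ranked list of the series, from which the conservative list was taken, the order of the scores turned. There the second peak had 823 and the first 475, and neither reached the conservative list. Which of both intron peaks scores as the more reproducible therefore depends on the list.

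At egl-44, which encodes a TEA domain (TEAD) factor that works with EGL-46, the summit lay 4479 bp from the gene start, at chrII:5933116-5933445. This is 205 bp upstream of an internal transcription start site (TSS) at 5933486. It is also within the first intron (7569 bp) of the transcripts that start upstream of it. The peak had a signal of 108, rank 2915, with 53.6 in replicate 1 and 52.0 in replicate 2. The replicate signals were close here. The site was in neither replicate's thresholded list, with a score of 325 in replicate 1 and 425 in replicate 2. It was the summit nearest to the threshold, with a score of 835, and the other ranked list scored it 786.

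The migration gene ham-2, which encodes a zinc finger protein, carried 2 summits. Of all genes 5.51% carried 2 or more, which is 1101 of the 3813 genes that had any. The first lay 3543 bp upstream of the gene start at chrX:4550977-4551306, with a signal of 148 and rank 1354. Its signals were 58.1 in replicate 1 and 89.9 in replicate 2, with scores of 514 and 1000, and only the replicate 2 thresholded list held it. The nearest TSS belonged to C07A12.18, a gene on the opposite strand, 1239 bp away, so the assignment of this summit to ham-2 rests on the window. The second lay 1578 bp inside the gene at chrX:4556098-4556427, 872 bp upstream of an internal TSS and in the first intron (2258 bp) of transcripts a and b. Its signal was 130.6, rank 1883, with 68.4 in replicate 1 and 51.4 in replicate 2, and only the replicate 1 thresholded list held it. Replicate 1 gave it a score of 895 and replicate 2 a score of 92, where the lowest score of the replicate 2 ranked list was 48. Both summits were in the conservative list.

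**Figure D2:**
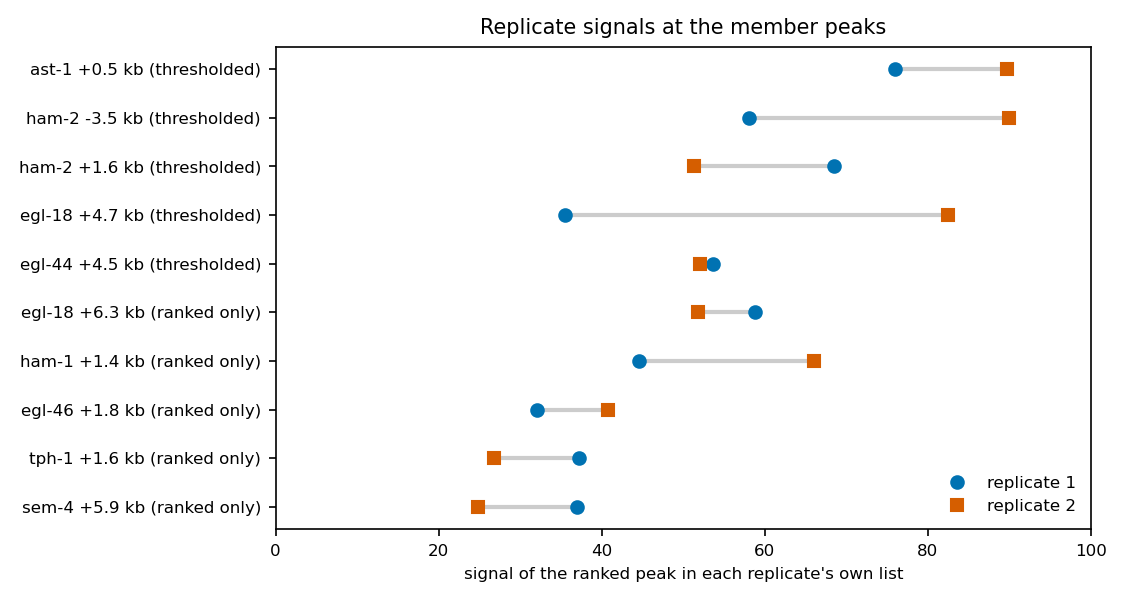
Signal in the ranked list of replicate 1 (blue circles) and of replicate 2 (orange squares) at the 5 thresholded summits and at the highest ranked peak of every other gene that had one, plus the egl-18 peak of highest signal. The horizontal axis is the signal within each replicate's own list. The gap is widest at egl-18 +4.7 kb (35.5 and 82.5) and narrowest at egl-44 (53.6 and 52.0).

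In the series ranked list the other peaks of these 4 genes were weaker, apart from the egl-18 peak named above. At ast-1 the next highest had a signal of 96.3 and a score of 170, in an intron 3857 bp from the gene start, with 53.4 and 42.1 in the replicates. At ham-2 the third highest had 64.8, at 1142 bp upstream. At egl-44 the step was smaller, with 93.4 and a score of 137 for the next peak, 2532 bp from the gene start in the same intron. Near the first gene start itself the signals were low at egl-44 (43.2 at 189 bp upstream, in replicate 1 alone) and at ham-2. There the peak 27 bp upstream had 9.64, and its neighbour 332 bp upstream had 23.8, with 25.2 and 12.5 in the replicates. Replicate 2 alone also had a ham-2 peak in a coding exon 3985 bp from the gene start, with a signal of 59.1 and a score of 604. That signal was above the 51.4 of the ham-2 intron summit in the same replicate. No replicate 1 peak overlapped it, and the series ranked list held no peak there. Of the 5 thresholded summits, 4 lay inside a gene. The window holds the whole gene but only 5 kb upstream, and no share over all summits is set beside this count. It describes these sites alone.

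All 5 summits had a ranked peak in both replicates, and the replicate summits lay from 0 to 38 bp from that of the series. No member summit was in the thresholded list of both replicates, with 2 in that of replicate 1, 2 in that of replicate 2 and egl-44 in neither. Of all 3146 summits, 29.4% were held by a thresholded peak of both replicates, 41.4% by one of replicate 1, 46.1% by one of replicate 2 and 41.9% by neither. Replicate 2 had the higher signal at 3 of the 5. Counted by gene, 2 of the 10 had a summit in the replicate 1 thresholded list (ast-1 and ham-2), beside 10.6% of all genes. In the replicate 2 thresholded list 2 had one (egl-18 and ham-2), beside 11.1% of all genes. In the conservative list 2 had one (ast-1 and ham-2), beside 18.5%. Thus ham-2 was the gene found in every list, through different summits in each replicate, while egl-44 rested on the combined list alone.

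No summit had a tRNA, snoRNA, snRNA, miRNA, piRNA or rRNA gene within 500 bp. Annotated ncRNA genes of WormBase lay within 165 bp of 3 of the 5, namely F55A8.3 at egl-18, C07A12.9 at the upstream ham-2 summit and C05E11.12 with C05E11.14 at the ham-2 intron summit. Of all 3146 summits, 18.3% had an ncRNA gene that near. The share of G or C in the 101 bp around the summit was 65.3% at ast-1, 62.4% and 50.5% at the ham-2 summits, 57.4% at egl-18 and 47.5% at egl-44. The median over all summits was 52.5%, and 3 of the 5 were above it.

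The 101 bases centred on each summit outside UTRs are given so that the sites can be seen. They are from the RefSeq copy of the same assembly (WBcel235), on the plus strand, which is the coding strand of all 3 genes. Capitals mark E-boxes, the CANNTG sequence bound by bHLH factors such as HLH-3.
egl-44 intron, chrII:5933231-5933331: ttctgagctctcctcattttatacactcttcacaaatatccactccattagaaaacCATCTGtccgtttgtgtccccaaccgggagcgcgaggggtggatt
egl-18 intron, chrIV:1906964-1907064: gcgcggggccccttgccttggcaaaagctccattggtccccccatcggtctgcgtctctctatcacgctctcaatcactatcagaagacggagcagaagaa
ham-2 upstream, chrX:4551092-4551192: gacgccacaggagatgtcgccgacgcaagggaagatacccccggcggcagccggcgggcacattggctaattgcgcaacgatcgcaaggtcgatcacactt
ham-2 intron, chrX:4556213-4556313: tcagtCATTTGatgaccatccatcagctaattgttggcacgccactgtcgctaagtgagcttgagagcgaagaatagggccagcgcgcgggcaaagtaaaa

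Both E-boxes are visible there, from 6 to 11 bp past the egl-44 summit and from 45 to 40 bp before the ham-2 intron summit. An E-box was thus present at 2 of the 5 member summits within 50 bp, beside 34.9% of all summits and 28.7% of windows of the same length 300 bp to either side. On either strand, GATAAG and GATGAG, which are named for the binding of EVI1, were at none of the 5, beside 2.32% and 6.45% of all summits and 3.96% and 4.18% of the flanking windows. The AP-1 sequence TGACTCA (0.763% of all summits) and the ETS sequence GGAAGT (4.39%) were at none either. These matches describe the letters in the window and no more.

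The other 6 genes had no thresholded summit, and the ranked list accounts for 4 of them. The gene nearest to the threshold was ham-1, which encodes a winged helix protein needed for the asymmetric division that gives rise to the HSN. Its highest peak, at chrIV:12543450-12543779 in coding exon 4, had a signal of 101.4 and a score of 786. The replicate signals were 44.6 and 66.1, the first at a summit 97 bp from that of the series. All 4 ranked peaks of ham-1 lay inside the gene in coding exons, and each had a ranked peak in both replicates. The peaks 234 bp and 2773 bp from the gene start had signals of 91.6 and 88.6.

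The partner of egl-44, egl-46, which encodes a zinc finger protein of the INSM family, had 2 ranked peaks. The higher lay in coding exon 5 at chrV:6679566-6679895, with a signal of 77.7, a score of 463 and replicate signals of 32.1 and 40.8. The zinc finger (SALL family) gene sem-4 had 15 ranked peaks but weak ones, the highest with a signal of 58.1 and a score of 259. Among genes with windows of 12 to 18 kb, 75.6% had a ranked peak of higher signal than any of sem-4. The ranked list thus held egl-46 and sem-4 at signals far below the thresholded median.

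The serotonin gene tph-1, which encodes tryptophan hydroxylase, the rate-limiting enzyme of serotonin synthesis, had 9 ranked peaks and none with a score of 540 or more. The highest signals were 66.6, in an intron 1552 bp from the gene start and 423 bp from the piRNA gene 21ur-14885, and 66.3, at 4337 bp upstream and inside the neighbouring gene rol-8. At the tph-1 promoter, 135 bp upstream of the gene start, the signal was 54.3 with a score of 207. Replicate 1 had 38.1 there and replicate 2 had 35.4, so a weak ranked peak was present in both.

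The POU homeodomain gene unc-86 (chrIII:8212740-8216336, minus strand) and the bHLH gene hlh-3 (chrII:9086608-9087908, plus strand) had no peak at all in the series ranked list. In replicate 1, unc-86 had 5 ranked peaks, all upstream of the gene start, with signals from 23.1 to 43.8 and scores from 40 to 254. One of these lay 58 bp upstream of the gene start with a signal of 40.8. Replicate 2 had none, and no unc-86 peak of replicate 1 overlapped a peak of replicate 2. At hlh-3 neither replicate had a ranked peak. An empty window was common, with 35.4% of all genes, 35.2% of genes with windows of 7 to 9 kb (the class of unc-86) and 41.6% of those under 7 kb (the class of hlh-3).

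Ranked peaks came in dense runs broken by empty stretches. The median spacing of neighbouring summits in the series ranked list was 629 bp, while 1910 stretches longer than 10 kb without a summit made up 51.05% of the genome. The unc-86 window lay inside such a stretch of 36.2 kb, and the hlh-3 window inside one of 30.4 kb. In replicate 2 the stretch at unc-86 was 36.9 kb. The egl-46 window was mostly in one as well (86.4% of it lay in a stretch of 23.2 kb), and 61.2% of the ham-1 window, upstream of the gene, lay in one of 12.4 kb. In replicate 1 the ham-1 window held no such stretch, and 5 ranked peaks with signals from 9.89 to 19.2 lay upstream of the gene, none of them overlapping a replicate 2 peak. What sets these stretches was not tested. The G or C content of the window was 34.6% for both unc-86 and hlh-3, beside a median of 33.9% for genes with no ranked peak and 37.0% for genes with a thresholded summit. Among the other members, it was 34.8% for egl-44, which had a thresholded summit. For egl-46, which had 2 ranked peaks but no thresholded summit and so is in neither group, it was 39.1%.

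At the other end, egl-18 held 37 ranked peaks in its window of 20.5 kb, 29 of them inside the gene, and 25 of the 37 had a peak in both replicates. Genes with windows of 18 kb or more had a median of 19, and 13.4% of them had 37 or more. Only 3 of the egl-18 peaks had a score of 540 or more. The G or C content of the egl-18 window, 41.2%, was the highest of the 10, beside a median of 35.6% over all genes. Over the 10 genes there were 107 ranked peaks, 73 inside genes and 34 upstream. No share over all ranked peaks is set beside this split. A score of 540 or more was reached by 8 of the 107, beside 6970 of all 65641 ranked peaks.

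**Figure D3:**
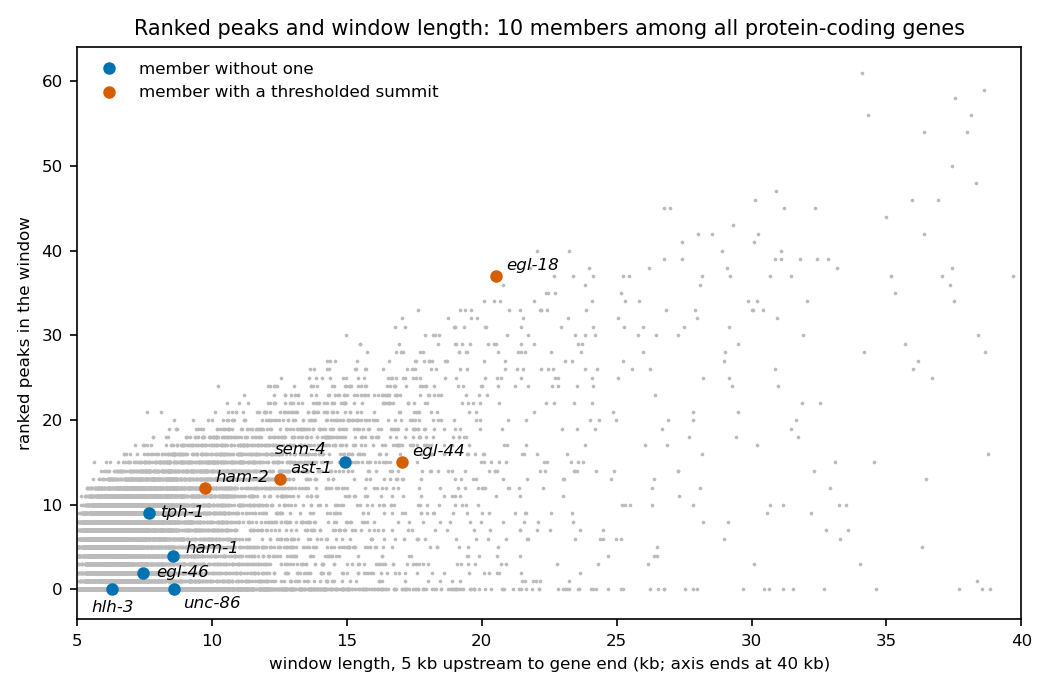
Number of ranked peaks of the series (vertical axis) against the length of the window from 5 kb upstream to the gene end (horizontal axis, kb) for all protein-coding genes with windows up to 40 kb (grey) and the 10 members (coloured). Members with a thresholded summit (orange) have windows of 9.72 kb or more, and egl-18 stands near the upper edge with 37 peaks.

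The count of genes with a summit has to be read with the length of the window, which grows with the gene. All 4 genes with a summit had windows of 9.72 kb or more, and the 5 with windows up to 8.60 kb (hlh-3, egl-46, tph-1, ham-1 and unc-86) had none. Of all genes, 14.7% of those with windows under 7 kb had a summit, 18% of those with 7 to 9 kb, 27% with 9 to 12 kb, 31.8% with 12 to 18 kb and 41.9% with 18 kb or more. The members with a summit were 0 of 1, 0 of 4, 1 of 1, 2 of 3 and 1 of 1 in these classes. With so few genes in a class, 4 of 10 members beside 19.1% of all genes is a description and not a difference particular to them. By the signal of the highest ranked peak, 12.1% of genes in its class stood above ast-1 and 14.7% above ham-2. The shares were 24.0% for ham-1, 35.3% for egl-44 and 42.3% for both egl-18 and egl-46. They were 51.1% for tph-1 and 75.6% for sem-4, so by this measure egl-18 stood no higher in its class than egl-46, which had no summit.

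**Figure D4:**
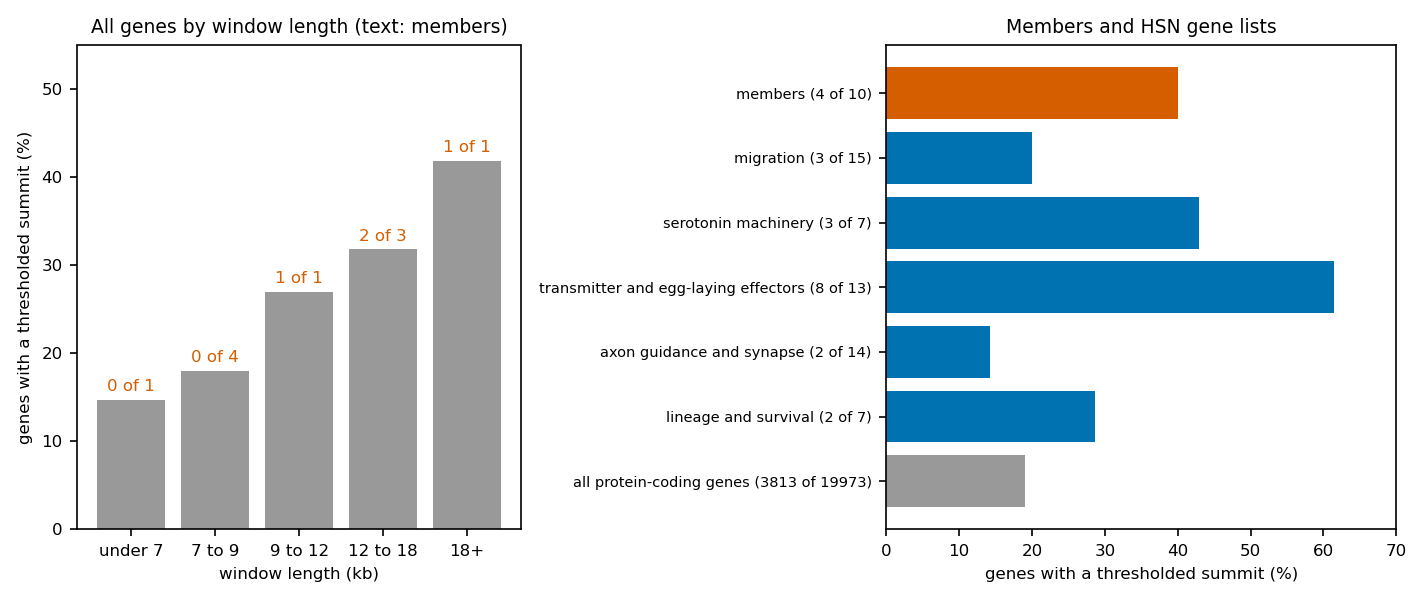
Left, share of all protein-coding genes with a thresholded summit (%) by window length (kb), from 14.7% to 41.9%, with the number of members written above each bar. Right, the same share for the 10 members (orange), for 5 other lists of HSN genes (blue) and for all protein-coding genes (grey), from 14.3% in the axon guidance list to 61.5% in the transmitter and egg-laying list. The shares on the right are not matched for window length.

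Other genes of HSN development and function were counted in 5 lists. Of their 56 genes, 18 (32.1%) had a summit in the window, beside 19.1% of all genes. These 2 shares are not matched for window length. The median window was 14.7 kb in the transmitter and egg-laying list and 13.4 kb in the axon guidance list. It was 8.6 kb in the migration, 7.8 kb in the lineage and 6.6 kb in the serotonin list, beside 7.0 kb over all genes. The genes of serotonin synthesis and handling had a summit in 3 of 7 cases. The strongest peak of all those lists was at cat-1, which encodes the vesicular monoamine transporter, with a signal of 514 and 250 and 261 in replicates 1 and 2, and a tRNA gene lay within 500 bp of it. The peaks at ptps-1 (173), which acts in the synthesis of the biopterin cofactor, and at mod-5 (143), the serotonin reuptake transporter, were nearest to the TSSs of other genes, ain-2 and Y54E10BR.2. No summit was found at cat-4 or bas-1, which like tph-1 encode parts of the serotonin pathway.

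The list of transmitter and egg-laying genes had a summit in 8 of 13 cases. Its windows were long, with 8 of the 13 at 12 kb or more, of which 5 had a summit, beside 34.8% of all genes with such windows. The Gq alpha gene egl-30 had a signal of 428 at a summit 54 bp upstream of its start, with 169 in replicate 1 and 253 in replicate 2. The peak at ida-1, which encodes a dense-core vesicle protein, had 279 and lay near 2 tRNA genes. The peak assigned to goa-1, the Go alpha gene, had 225, was nearest to the TSS of C26C6.9 and lay near a snoRNA gene. The anion transporter gene abts-1 had 194 and the RGS gene egl-10 had 177. The acetylcholine genes unc-17 and cha-1, which overlap, shared a peak of 129. Thus 1 peak counts for both genes of that pair.

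Of the migration genes 3 of 15 had a summit, close to the share of all genes. The peak at egl-27, a MTA-type chromatin factor gene, had a signal of 169 at 249 bp upstream of the gene start, with 75.6 and 86.3 in the replicates. Those at unc-73 (176) and mig-10 (118) lay 26074 and 26323 bp inside long genes, nearest to the TSSs of F55C7.2 and F10E9.7. The Hox genes egl-5 and mab-5 and the Wnt genes egl-20, cwn-1 and cwn-2 had none. In the axon guidance list 2 of 14 had one, slt-1 (156, with a tRNA gene within 500 bp) and unc-76 (129). The netrin gene unc-6 and its receptor gene unc-40 had none. In this list 10 of the 14 windows were 12 kb or more, and 2 of the 10 had a summit, beside 34.8% of all genes with such windows. For windows that long it was 3 of 5 in the migration, 1 of 1 in the serotonin and 1 of 2 in the lineage list. In the lineage and survival list 2 of 7 had one. These were ced-9 (218, nearest to the TSS of mev-1) and tra-1 (131), the regulator of sexual fate.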

How the data were processed

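The authors deposited peak lists on ce11, per the file headers and labels: a ranked and a thresholded list for each replicate and for the series, and a conservative version of the latter pair. Aligner and peak caller: not given in the sources used here. A control file is among the inputs of each list, per the file headers. The IDR score and the signal of each peak were deposited by the authors, as was the summit offset. The authors also deposited a −log10 global IDR, from which a score of 830 is 0.01 and a score of 540 is 0.0501. Every peak of the series thresholded list is in 1 of the 2 series ranked lists with the same score, and that list was used as the ranked list.

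Gene models were those of Ensembl release 115 on WBcel235, and every peak lay within its chromosome. Windows, shares and motifs were computed with Python 3.11.15, pandas 2.3.3 and numpy 2.4.6, and window counts were tested on simulated data. Replicate peaks are those holding the series summit. Depth is unknown. No test was made, since 1 group gives no comparison. The named genes are all members, the genes of the nearest TSS and, per list, the 6 of highest signal with a summit, ties included. Genes named as having none were picked once their values were known. The members and lists were chosen with earlier results of these data known.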

Additional observations from a re-analysis of the deposited data

How the results depend on the processing

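The 4 genes with a summit stayed the same 4 with windows reaching 1, 2 or 10 kb upstream or 1 kb past the gene end. The same held with any overlap of the peak. Each of the 4 had a summit inside the gene, so none of these settings could drop a gene. Only the wider ones could add a gene, and none was added. The share of all genes with a summit rose with the upstream reach. The same 4 also stayed when the nearest TSS had to be that of the gene, a rule that could have dropped them. The number of summits fell from 5 to 4 with 1 or 2 kb upstream and with the nearest TSS rule. The member count fell to 2 genes in the conservative list (3 summits, ast-1 and ham-2), beside 18.5% of all genes. It was also 2 among peaks at or above the median signal (2 summits, the same 2 genes), beside 11.1% of all genes. Without replicate 2 and without replicate 1, in the list of the other alone, the range was 2 to 2 genes and 2 to 2 summits. With a score of 540 or more there were 8 summits in the ranked list and, in an alternative chosen after seeing the data, 10 in the other ranked list. In both, ham-1 joined as the fifth gene, beside 33.5% and 32.7% of all genes with such a peak. Promoters alone, from 1000 bp upstream to 500 bp downstream of any TSS of the gene, held 3 summits at egl-44, ast-1 and ham-2. Of all genes, 7.57% had a summit there. For the other HSN genes the count of 18 went to a range of 11 to 12 in the single replicate lists (10.6% and 11.1% of all genes), to 29 with a score of 540 or more in either ranked list (33.5% and 32.7%), and to 4 of 56 with promoters alone (7.57%), where the share was not above that of all genes. Within 100 bp of the summit CANNTG was at 4 of the 5 (56% of all summits), GATGAG at 1 (12.7%) and GGAAGT at 1 (8.65%). Pairing replicate peaks by any overlap left the signals of the 5 thresholded summits as reported. No paired analysis was possible because both samples belong to a single group. Depth is unknown, and the cause of these differences was not tested.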

Other observations

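Of the 56 genes in the lists of HSN genes, 12 (21.4%) had no ranked peak, beside 35.4% of all genes. These shares are not matched for window length. Over all genes, the share without a ranked peak was 41.6% for windows under 7 kb and 35.2% for windows of 7 to 9 kb. The genes named here were chosen after the values were seen. The potassium chloride cotransporter gene kcc-2, with a window of 38.5 kb, and the netrin receptor gene unc-5, with 37.7 kb, had none. The potassium channel gene unc-103, with a window of 36.9 kb, had 46 ranked peaks and no thresholded summit. The neuropeptide gene nlp-3 and the receptor genes egl-6 and egl-47 had none, as did hlh-14, a proneural gene of the lineage that gives rise to the HSN, and egl-1, the cell death gene that acts in the male HSN. In length unc-103, kcc-2 and unc-5 are alike, so these 3 genes cannot show whether the number of ranked peaks follows length. Over all genes the median number of ranked peaks was 3 for windows under 7 kb and 19 for windows of 18 kb or more.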
